A study of Macaca mulatta with 10 samples.

Results

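The genes described here are the xenobiotic receptor NR1I3 and the nuclear receptors that govern metabolism in liver, with 1 of their coactivators, in livers of brain-dead and of living rhesus macaques (Macaca mulatta). They are the probe sets whose platform annotation gives a single symbol, and that symbol is one of NR1I3, NR1I2, NR1H4, NR1H3, NR0B2, NR5A2, PPARA, RXRA, ESRRA and PPARGC1A. Of these 10 genes, 9 had probe sets, 13 in all, among 14133 symbols that the array names. ESRRA had no probe set paired with its symbol and is not analysed here. The set was proposed with the difference between brain-dead and control livers already known, NR1I3 because of its fall. The members were thus chosen by values of that same difference, which are given as a description, with no p-value, and nothing is inferred from them.

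Livers of 5 brain-dead animals, 2 females and 3 males, were set against livers of 5 living donors, 3 females and 2 males, with 1 array per animal. In the brain-dead animals a balloon was inflated outside the dura until signs of brain death appeared, and blood pressure was supported by Ringer's solution and by vasopressin or dopamine, alone or together. The length of brain death is given as 6 h with the samples and as 5 h in the design of the series. The living donors were sedated, anaesthetised and ventilated for 1 h, and all livers were flushed in place with UW preservation solution before they were taken. The effects of longer ventilation and of these drugs cannot be told apart from that of brain death. The brain-dead animals were 7, 18, 7 and 7 years old, with the age of animal 3 not given, and the control animals 16, 10, 4, 20 and 10 years.

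Nuclear receptors are transcription factors that small lipophilic molecules switch on or off. NR1I3 (the constitutive androstane receptor, CAR) and NR1I2 (the pregnane X receptor, PXR) sense drugs and endogenous toxins in hepatocytes and induce overlapping sets of cytochrome P450, conjugating and transporter genes. NR1H4 (the farnesoid X receptor, FXR) senses bile acids and induces NR0B2 (SHP), which lacks a DNA-binding domain and restrains bile acid synthesis partly by repressing NR5A2 (LRH-1). NR1H3 (the liver X receptor alpha) senses oxysterols and drives sterol export and lipogenesis, PPARA senses fatty acids and drives their oxidation, and RXRA is the partner with which most of these receptors bind DNA. PPARGC1A is a coactivator that works with PPARA, ESRRA and other receptors in fasting and mitochondrial metabolism.

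Values are the authors' signals, an intensity per probe set on a linear scale, and changes are log2 differences of brain-dead minus control with limma's standard error (n = 5 animals per group). A gene is said to have passed the test, to have risen or to have fallen, where its adjusted p in limma over all probe sets tested was under 0.05. Tested probe sets are those brighter than the median of their array in 5 or more of the 10 livers, which held for 12 of the 13 members. Array medians ranged from 175 to 227, and precision is limited by the number of arrays. Markers of hepatocytes were abundant in all livers, with a summed signal of 10 of 16 listed genes of 825072 to 942956 in brain-dead and 920632 to 1114148 in control livers, and none of the 10 passed the test although all 10 had changes below 0. In tissue of mixed cells, fewer cells of a type and less RNA per cell cannot be told apart. Neutrophil markers summed to 8477 to 56938 in brain-dead and 1019 to 6251 in control livers, from 6 of 12 genes. Of these 6, S100A8 and S100A9 rose and 4 did not pass. Changes were below 0 for 2 of the 6, among them ELANE at -0.38. S100A8 and S100A9 dominated the sum, with brain-dead means of 12411 and 13929 against 372 for MMP9 and 406 for CSF3R. MPO, S100A12 and MMP8 were too dim to be tested. Summed signals of the measured markers of Kupffer cells (10 of 11 genes, 32194 to 85800 in brain-dead and 53196 to 92051 in control livers) and of endothelium (9 of 11 genes, 24986 to 35993 and 28627 to 48287 in the same order) overlapped between the groups. The same held for cholangiocytes (5 of 9 genes), stellate cells and fibroblasts (5 of 11) and lymphocytes (6 of 13), and no marker of these 5 types passed the test. The part of these cell types in the results below was not tested.

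Of the 12 member probe sets tested, 1 passed the test, that of NR1I3, where 6.10% of all 26653 probe sets tested did, 3.39% lower and 2.72% higher. Since NR1I3 was chosen for its fall in these same animals, its place past the threshold was fixed by that choice and is no evidence, and the threshold is used for the members only to describe where each one lies. It was also the only one whose groups did not overlap, where 6.93% of all probe sets did not. Changes were below 0 for 10 of the 12 probe sets and for 8 of the 9 genes, each gene taken at its probe set with the highest mean over all arrays, where 50.2% of all probe sets were below 0. The median change of the 9 genes was -0.55, and that of all 9835 genes measured was -0.0069. NR1H4 was the gene with changes above 0, in both probe sets tested.

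NR1I3 signal was 712, 339, 521, 631 and 245 in brain-dead animals 1 to 5, against 3079, 5089, 3824, 2001 and 2001 in control animals 1 to 5. Every brain-dead animal lay below every control animal, and the highest brain-dead value was far under the lowest control value. The mean was 490 ± 196 in brain-dead and 3199 ± 1308 in control livers (SD, n = 5 each). The log2 change of NR1I3 was -2.72 ± 0.34, a 6.58-fold lower level in brain-dead livers, the 15th lowest change of the 9835 genes. The spread between animals was alike in size in both groups, the SD of the log2 values being 0.64 in brain-dead and 0.59 in control livers. Over 22 alternative settings its change lay between -2.88 and -2.49.

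NR1I2, the receptor closest to NR1I3 in the genes it induces, had signals of 1839, 721, 567, 951 and 915 in the brain-dead animals, against 2423, 2510, 2578, 1218 and 1227 in the control animals. The groups overlapped through brain-dead animal 1, which lay above the control males 4 and 5. Its change of -1.03 ± 0.34 did not pass the test. It passed when brain-dead animal 1 was left out, at -1.28, and with array weights, at -1.18. Among the 12 member probe sets NR1I3 and NR1I2 were the ones with a change of at least 2-fold.

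**Figure D1:**
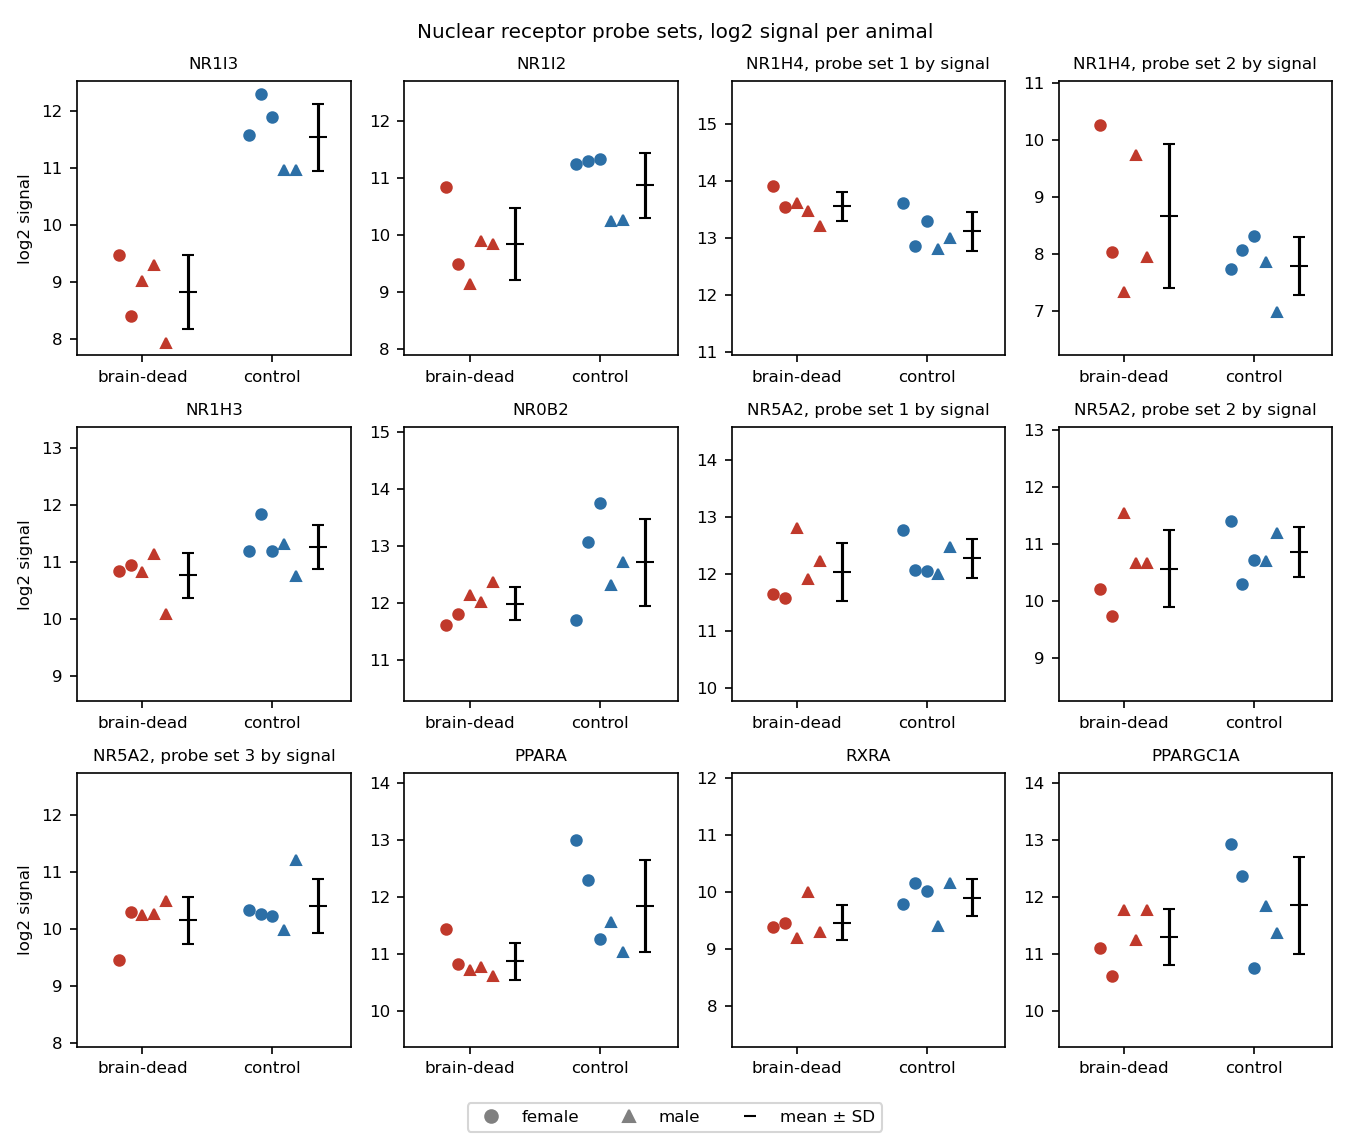
Log2 signal of the 12 member probe sets tested, 1 point per animal, brain-dead left and control right in each panel, with circles for females, triangles for males and bars for mean ± SD (n = 5 each). All panels span the same log2 range, probe sets of 1 gene are numbered by signal, and the groups are separate for NR1I3 and overlap in the other panels.

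RXRA, the common dimer partner, had signals of 667, 696, 582, 1015 and 623 in brain-dead animals, against 880, 1133, 1029, 673 and 1137 in control animals. Brain-dead animal 4 lay above control animals 1 and 4, and the change of -0.44 ± 0.22 did not pass the test. NR1H3 had 1835, 1976, 1813, 2255 and 1092 in brain-dead animals, against 2362, 3671, 2342, 2554 and 1737 in control animals. The groups overlapped through control animal 5, and the change was -0.50 ± 0.25, not past the test. PPARA had 2761, 1807, 1685, 1744 and 1566 in brain-dead animals, against 8137, 5048, 2462, 3025 and 2093 in control animals. Brain-dead animals lay close together (SD of log2 signal 0.32) and control animals far apart (0.81), and the overlap came from brain-dead animal 1, which lay above control animals 3 and 5. PPARA changed by -0.96 ± 0.34, not past the test, and by -0.67 without control animal 1, the animal with its highest signal.

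The coactivator PPARGC1A had signals of 2202, 1562, 3490, 2418 and 3506 in brain-dead animals, against 7810, 5308, 1732, 3654 and 2624 in control animals. The 3 highest values were those of control animals 1, 2 and 4, while control animal 3 was among the lowest of all. Its change of -0.55 ± 0.38 did not pass the test, was -0.28 without control animal 1 and -0.23 without both animals numbered 1. Those 2 animals stood apart from the other 8 on the second principal component of all tested probe sets.

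In the bile acid axis the changes of NR1H4 were above 0 and those of NR0B2 and NR5A2 below 0, and none passed the test. NR1H4 was measured by 3 probe sets. The brightest had signals of 15338, 11952, 12524, 11319 and 9466 in brain-dead animals, against 12545, 7399, 10066, 7157 and 8179 in control animals. All brain-dead animals lay above control animals 2, 4 and 5. Brain-dead animals 2, 3, 4 and 5 lay below control animal 1, and brain-dead animal 5 also below control animal 3. The change of 0.43 ± 0.22 did not pass the test. The second NR1H4 probe set had 1232 and 855 in brain-dead animals 1 and 4 and 162 to 261 in the other 3, against 126 to 319 in control animals. Its change of 0.87 ± 0.51 rests on those 2 animals, was 0.47 without brain-dead animal 1, and did not pass the test. The third NR1H4 probe set lay above its array's median in 1 of 5 brain-dead and 0 of 5 control animals and was not tested, with 58.6 to 277 in brain-dead and 22.9 to 119 in control livers.

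NR0B2, which NR1H4 induces, had signals of 3135, 3581, 4505, 4116 and 5273 in brain-dead animals, against 3341, 8569, 13718, 5116 and 6757 in control animals. The brain-dead values lay close together, with an SD of log2 signal of 0.29 against 0.77 in control livers. Brain-dead animal 1 lay just under the control range, and the other brain-dead animals lay within its lower part. The change of -0.73 ± 0.33 did not pass the test and was -0.47 without control animal 3. NR5A2, a receptor that NR0B2 represses, was measured by 3 probe sets, and none passed the test. Their changes were -0.24 ± 0.27, -0.30 ± 0.32 and -0.26 ± 0.27 in the order of their mean signal. The brightest had 3191, 3047, 7197, 3868 and 4782 in brain-dead animals, against 6961, 4270, 4263, 4071 and 5706 in control animals. Its highest value belonged to brain-dead animal 3 and its lowest to brain-dead animals 1 and 2, so the brain-dead group enclosed the control group. The brightest and the second NR5A2 probe set varied together around their group means (r = 0.94 over 10 arrays), while the third followed them less closely (r = 0.42 and 0.33). With both animals numbered 1 left out, the 3 changes were -0.015, -0.078 and -0.10.

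**Figure D2:**
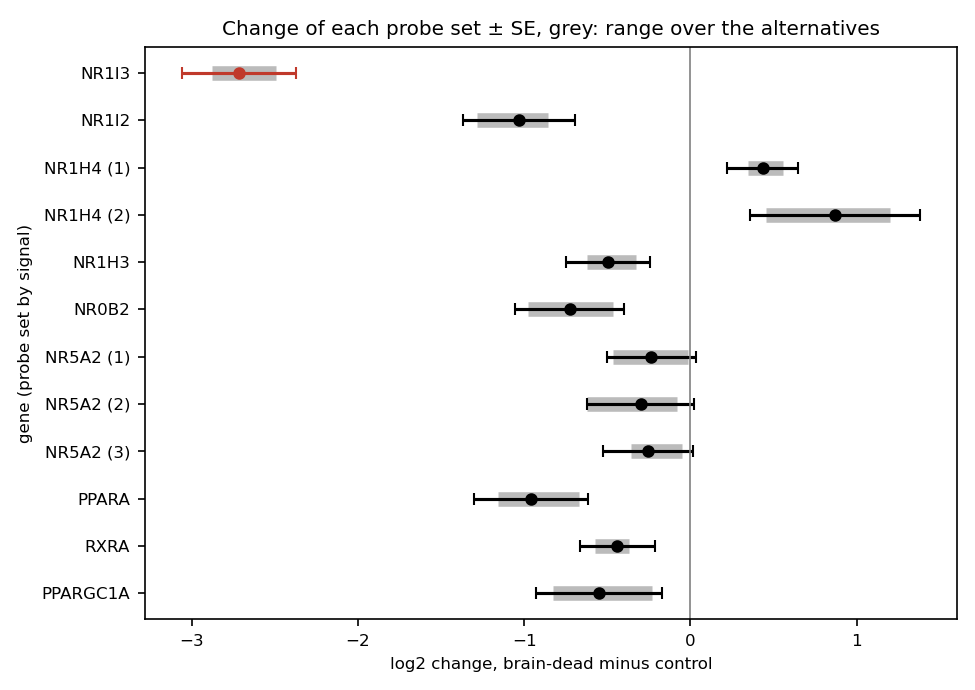
Log2 change of each tested member probe set, brain-dead minus control, as a point with its standard error, and the range over the alternative settings as a grey bar. NR1I3 lies at -2.72, drawn in red as the probe set that passed the test, NR1H4 lies above 0, and the other points lie between -1.03 and -0.24.

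Because the groups differ in their numbers of females and males, the members were also read within each sex. NR1I3 changed by -2.99 ± 0.45 in females (2 brain-dead and 3 control) and by -2.21 ± 0.45 in males (3 brain-dead and 2 control). Its groups did not overlap when pooled, so they could not overlap within a sex. NR1I2 changed by -1.12 ± 0.39 in females and -0.63 ± 0.39 in males. The NR1I2 groups overlapped when the sexes were pooled and did not within either sex. Groups of so few animals can separate by chance. The share of all probe sets that separate within a sex was not computed, so nothing is inferred from such separation. Both control males lay below all 3 control females for NR1I3 (mean 2001 in control males and 3997 in control females) and for NR1I2 (1222 and 2503). PPARGC1A changed by -1.16 ± 0.53 in females and by -0.0016 ± 0.53 in males, and the brightest NR5A2 probe set by -0.69 ± 0.35 in females and by 0.083 ± 0.35 in males. The PPARGC1A groups overlapped in both sexes, and those of NR5A2 overlapped in males and not in females.

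Sex, its interaction with brain death and age were tested across all probe sets, since the choice of the members did not use them. Sex was tested with group in the model, and 0 of 12 member probe sets and 0.00% of all passed (limma, lowest adjusted p over all probe sets 0.144). At an unadjusted p under 0.05 it was 1 of 12 members, against 12.1% of all probe sets. That member was NR1I2, lower in males by 0.79 ± 0.27 on the log2 scale (male minus female -0.79, limma, Benjamini-Hochberg adjusted p = 0.338). NR1I3 had a male minus female difference of -0.58 ± 0.32 (limma, adjusted p = 0.481) and PPARA one of -0.66 ± 0.31 (limma, adjusted p = 0.422). No interaction of sex with brain death passed, 0 of 12 members and 0.00% of all, with 0 members and 3.81% of all at an unadjusted p under 0.05 (limma). The interaction was 0.78 ± 0.63 for NR1I3 and 1.16 ± 0.75 for PPARGC1A (limma, adjusted p = 1.00 for each), with 2 or 3 animals in each combination of sex and group. Age was tested over the 9 animals whose age is given, with group in the model, and again 0 of 12 members and 0.00% of all probe sets passed. At an unadjusted p under 0.05 it was 1 of 12, against 3.85% of all, namely NR0B2 at -0.073 ± 0.029 per year of age (limma, adjusted p = 1.00).

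The target genes of the receptors were read from lists of genes known as their targets, mostly from human and mouse. Over the 9 lists of targets, partners and relatives, 137 of 222 genes were measured, of which 19 fell and 4 rose. Of all 9835 genes measured, 6.77% passed, 3.87% falling and 2.90% rising. Single arrays moved the count of genes that fell, which was 12, 11 and 7 without brain-dead animals 3, 4 and 5, and it was 8, 7 and 9 without control animals 1, 2 and 3. Leaving out both animals numbered 1 gave 10. These genes were measured in the same animals as the members, so they are no independent sample. The lists, too, were chosen with earlier results of these data known, and their counts are given as a description.

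**Figure D3:**
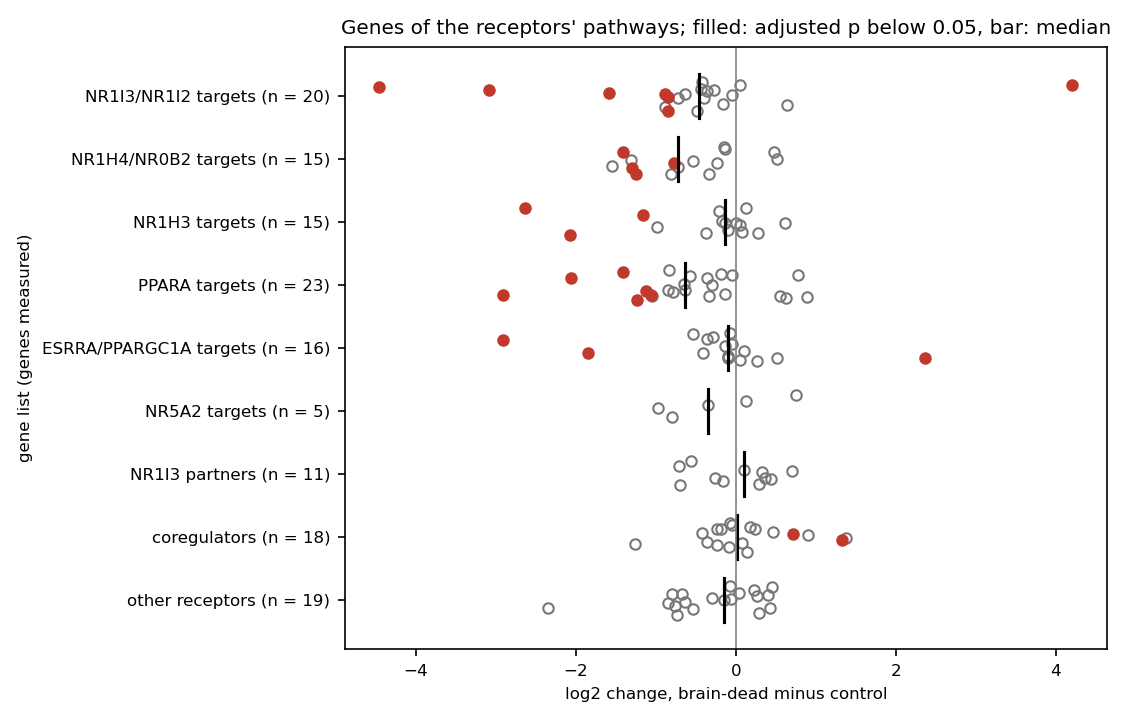
Log2 change, brain-dead minus control, of every measured gene on 9 lists of receptor targets, partners and relatives, with filled red points for genes that passed the test and a bar at each list's median. Genes that fell stand on the lists of NR1I3/NR1I2, NR1H4/NR0B2, NR1H3, PPARA and ESRRA/PPARGC1A targets, and no gene passed among other nuclear receptors, NR5A2 targets or NR1I3 partners.

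Among 20 measured targets of NR1I3 and NR1I2, 6 fell, 1 rose and 13 did not pass, with a median change of -0.46. ALAS1, the first enzyme of haem synthesis, which supplies the P450 enzymes with haem, had signals of 2030, 2164, 2704, 6449 and 627 in brain-dead animals, against 27978, 20564, 15483, 17767 and 13366 in control animals. The groups were far apart, and ALAS1 fell by 3.09 ± 0.47 on the log2 scale (limma, adjusted p = 0.00416). THRSP, a lipogenic gene that NR1I3 and NR1I2 induce in human hepatocytes, fell by 4.46 ± 1.00 (limma, adjusted p = 0.0230), with groups that overlapped. Signals were 162, 440, 61.7, 25.2 and 29.1 in brain-dead animals, against 330, 1878, 8654, 395 and 7741 in control animals. Brain-dead animals 1, 3, 4 and 5 lay below their array's median, so the size of this fall is uncertain. The change of THRSP lay between -5.31 and -3.52 over its alternatives. Its adjusted p in limma was 0.0546 and 0.0619 without brain-dead animals 4 and 5 and 0.0563 and 0.0557 without control animals 2 and 3, and ranged from 0.00648 to 0.0619 over its alternatives. SULT2A1, a sulfotransferase of steroids and bile acids, fell by 1.59 ± 0.33 (limma, adjusted p = 0.0188), and its 2 other probe sets had changes of -1.81 and -1.92 that passed too. SLC13A5, a citrate carrier that NR1I2 induces in human hepatocytes, was the member of the list that rose, by 4.21 ± 0.41 (limma, adjusted p = 0.000500). Its signals were 41886, 16577, 34714, 40135 and 50396 in brain-dead animals, against 1872, 1131, 1478, 1335 and 5405 in control animals. The calls of ALAS1, SULT2A1 and SLC13A5 were kept in all 22 alternatives. The other 3 genes that fell, CES2, ABCB1 and ABCC2, had changes from -0.89 to -0.85. The other probe sets of CES2, at -0.47 and -0.58, and of ABCC2, at -0.39, did not pass. ABCB1 lost its call in 12 of 22 alternatives, ABCC2 in 13 and CES2 in 2. The count of 6 was 3 without brain-dead animal 4 or 5 or control animal 2, 3 with no filter, and 2 where the model held sex and age.

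None of the P450 genes of that list passed the test. CYP2B6, the P450 most closely tied to NR1I3 in human liver, had signals of 59779, 11679, 40273, 48184 and 7880 in brain-dead animals, against 35483, 51078, 59672, 60791 and 35719 in control animals. Brain-dead animals 2 and 5 lay far below all others, and the remaining 3 lay within the control range. The change was -0.89 ± 0.49 (limma, adjusted p = 0.295). CYP3A4, a P450 that both receptors induce, had 93706, 49343, 79969, 85512 and 64915 in brain-dead animals, against 79063, 139273, 93288, 98554 and 88792 in control animals, with a change of -0.43 ± 0.21 (limma, adjusted p = 0.233). Among brain-dead animals the order of CYP2B6 was the order of NR1I3, with animal 1 highest, then 4, 3, 2 and 5, and that of CYP3A4 differed from it in the exchange of animals 2 and 5. Among control animals neither order followed NR1I3. This pattern was singled out after the values were seen, and it is given for 5 animals with no test. P450 genes have close relatives whose transcripts a probe set can also bind.

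**Figure D4:**
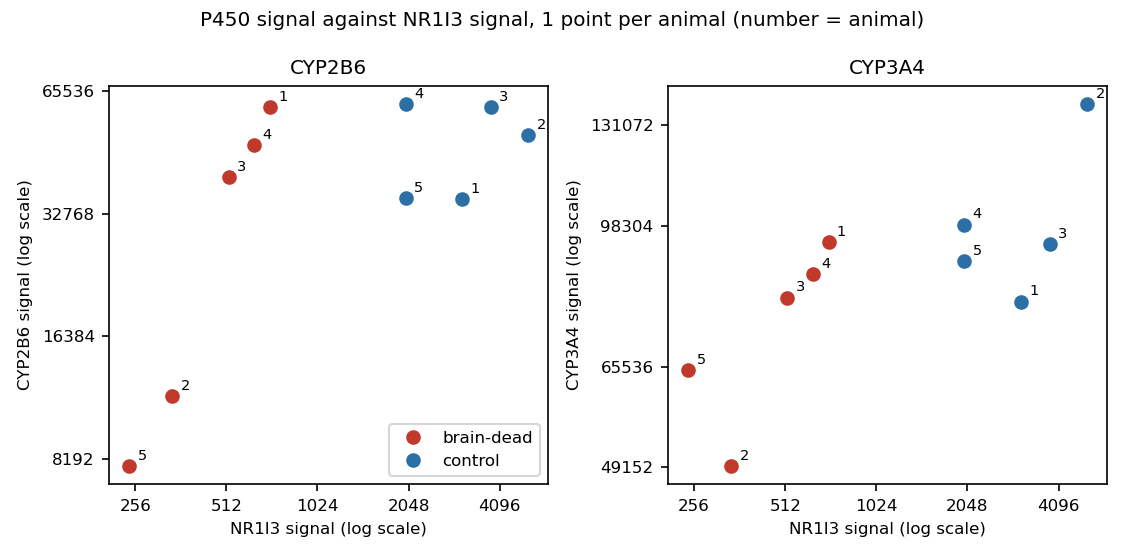
Signal of CYP2B6 (left) and CYP3A4 (right) against signal of NR1I3, both on log axes, with 1 numbered point per animal. The brain-dead animals line up along NR1I3 for CYP2B6, with 7880 at an NR1I3 signal of 245 and 59779 at 712, while the control animals show no such order.

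Over all 10 arrays, deviations from the group means correlated with those of NR1I3 at a median of r = 0.31 for the 20 targets of NR1I3 and NR1I2, with 16 above 0, and at r = 0.043 for all 9834 other genes. CES2 (r = 0.75), a carboxylesterase, CYP2B6 (0.74), CYP2C19 (0.71) and CYP3A4 (0.71) stood at the upper end of that list, and SLC13A5 (-0.27) at the lower. The median was also above 0 for hepatocyte (0.51), endothelial (0.55) and Kupffer cell (0.48) markers and for targets of NR1H4 and NR0B2 (0.51). All of these genes share the arrays and their scaling, and these correlations are descriptions.

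Among 15 measured targets of NR1H4 and NR0B2, 4 fell and none rose, with a median change of -0.72 and 13 changes below 0. APOA5, an activator of triglyceride clearance, fell by 1.41 ± 0.38 (limma, adjusted p = 0.0466), and its second probe set, at -2.79, passed too. SLCO1B3, a carrier that takes bile acids and drugs up from blood, fell by 1.30 ± 0.30 (limma, adjusted p = 0.0247). Its signals were 25594, 13412, 11060, 14294 and 6915 in brain-dead animals, against 44554, 34567, 26079, 27704 and 30772 in control animals, and the groups just missed each other at brain-dead animal 1 and control animal 3. FGFR4, the receptor through which FGF19 restrains bile acid synthesis, fell by 1.25 ± 0.30 (limma, adjusted p = 0.0292) and SLCO1B1, the related carrier, by 0.77 ± 0.19 (limma, adjusted p = 0.0319). The second probe set of SLCO1B3 changed by -0.62 and that of SLCO1B1 by -0.50, and neither passed (limma, adjusted p = 0.353 and 0.117), while that of FGFR4 passed at -1.20 (limma, adjusted p = 0.0484). The main enzyme of bile acid synthesis and the bile salt export pump, CYP7A1 and ABCB11, could not be read, since no probe set was matched to them. The count of 4 was 0 without brain-dead animals 3 or 5 or control animals 1 or 2, 1 without brain-dead animal 4 or control animal 3, and 1 where the model held sex and age, against 2 with no filter, with quantile normalization or without eBayes trend. APOA5 lost its call in 15 of 22 alternatives, SLCO1B1 in 12, FGFR4 in 7 and SLCO1B3 in 5 (limma, highest adjusted p 0.117, 0.108, 0.0744 and 0.0719).

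Among 15 measured targets of NR1H3, 3 fell and none rose, with a median change of -0.14. ABCG5 and ABCG8, the partners that form the transporter of cholesterol and plant sterols into bile, changed by -2.07 ± 0.34 and -2.63 ± 0.65 (limma, adjusted p = 0.00583 and 0.0332). ABCG5 had signals of 2497, 3451, 1628, 2246 and 1378 in brain-dead animals, against 13303, 15752, 7669, 5459 and 6446 in control animals, with no overlap. MLXIPL, a glucose-responsive regulator of lipogenesis, fell by 1.16 ± 0.26 (limma, adjusted p = 0.0237). The lipogenic regulator SREBF1 had a change of 0.072 ± 0.33 and the phospholipid enzyme LPCAT3 one of 0.28 ± 0.19, neither past the test (limma, adjusted p = 0.922 and 0.408). Both were chosen after their values were seen. ABCG5 kept its call in all 22 alternatives. ABCG8 lost its call with no filter (limma, adjusted p = 0.0530), without both animals numbered 1 (limma, adjusted p = 0.123), and without brain-dead animals 1, 4 or 5 or control animals 1, 2, 3 or 5 (limma, adjusted p between 0.0504 and 0.0863). MLXIPL lost its call without brain-dead animals 3 or 5 or control animals 1, 2 or 3 (limma, adjusted p between 0.0547 and 0.0647). The count of 3 was 1 without brain-dead animal 5 or control animals 1, 2 or 3.

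Among 23 measured targets of PPARA, 6 fell and none rose, with a median change of -0.64. PDK4, a kinase that shuts off pyruvate oxidation, fell by 2.91 ± 0.64 (limma, adjusted p = 0.0219), with signals of 1020, 604, 438, 1395 and 119 in brain-dead animals, against 8959, 4781, 8263, 1677 and 1826 in control animals. The control males 4 and 5 lay close to the highest brain-dead animals. EHHADH, a peroxisomal enzyme of fatty acid oxidation, fell by 2.06 ± 0.42 (limma, adjusted p = 0.0167) and PEX11A, a factor of peroxisome division, by 1.23 ± 0.29 (limma, adjusted p = 0.0281). APOA5 stands on this list too. CPT1A, which admits fatty acids to mitochondria, had a change of 0.56 ± 0.56 and ANGPTL4, a secreted lipase inhibitor, one of 0.77 ± 0.49 (limma, adjusted p = 0.591 and 0.36), both picked after their values were seen as targets with changes above 0. The count of 6 was 3 without brain-dead animals 4 or 5 or control animals 1 or 2, 2 without control animal 3, 1 without both animals numbered 1, 3 with no filter and 2 where the model held sex and age. EHHADH lost its call without that pair (limma, adjusted p = 0.0544). PDK4 lost its call without that pair and without control animals 1, 2 or 3 (limma, adjusted p between 0.0547 and 0.0602). PEX11A lost its call without brain-dead animals 4 or 5 or control animals 1, 2 or 3 (limma, adjusted p between 0.0547 and 0.0755), with no filter, where the model held sex and age, and without both animals numbered 1 (limma, adjusted p = 0.0550, 0.0502 and 0.0969), and its second probe set passed at -1.46.

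Of 16 measured genes that ESRRA and PPARGC1A control, 2 fell and 1 rose, with a median change of -0.095. Those that passed were PDK4, the gluconeogenic phosphatase G6PC1 (-1.85 ± 0.50, limma, adjusted p = 0.0460) and the mitochondrial superoxide dismutase SOD2, which rose by 2.36 ± 0.33 (limma, adjusted p = 0.00338). The 2 other G6PC1 probe sets changed by -1.51 and, in the opposite direction, by 0.46, and neither passed (limma, adjusted p = 0.0644 and 0.413). SOD2 is also a known target of NF-kB, and a second SOD2 probe set changed by -0.031 and did not pass. Of the respiratory chain, the ATP synthase and fatty acid oxidation, 6 genes on that list, chosen after their values were seen (SDHA, ATP5F1B, NDUFS1, COX7A2, UQCRC2 and ACADM), had changes between -0.36 and 0.10, none past the test. G6PC1 lost its call in 13 of 22 alternatives, among them leaving out brain-dead animals 3 or 5 or control animals 1, 2, 3 or 5 (limma, adjusted p between 0.0735 and 0.108), while SOD2 kept its call in all 22. The count of 2 that fell was 1 without brain-dead animals 3 or 5 or control animal 5 and 0 without control animals 1, 2 or 3 or without both animals numbered 1. It was 1 with quantile normalization, median centring, no filter, sex in the model or eBayes without trend. Of 5 measured targets of NR5A2 none passed (limma, 4 at an unadjusted p under 0.05, where 25.1% of all genes were). Of these targets, 1 fell without brain-dead animal 4 or with sex in the model, and 2 fell with the replicate block. GNMT, a glycine methyltransferase, had the largest change among them at -0.98 ± 0.30 (limma, adjusted p = 0.0725).

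None of the 19 other nuclear receptors measured passed the test in limma, with 5 at an unadjusted p under 0.05 (26.3%, where 25.1% of all genes measured were) and a median change of -0.14. Of these, 1 gene fell without brain-dead animals 2 or 3, with sex and age, with the replicate block or with array weights, and 2 fell without control animal 4. NR4A2, an immediate early receptor, had the largest change, -2.35 ± 0.72 (limma, adjusted p = 0.0691), with 475, 2302, 6077, 948 and 707 in brain-dead animals, against 14266, 5051, 10388, 1475 and 13872 in control animals. Control animal 4 lay at the level of the brain-dead animals and brain-dead animal 3 at that of the control animals. The glucocorticoid receptor NR3C1, which maintains NR1I3 expression in human hepatocytes, had a change of -0.64 ± 0.36 (limma, adjusted p = 0.300), a gene picked for this role and not by the rule for named genes. NR1H2, the second liver X receptor, had a change of 0.45 ± 0.22 and RXRB one of -0.056 ± 0.21 (limma, adjusted p = 0.242 and 0.902).

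Of 18 measured coactivators and corepressors, 2 rose and none fell, with a median change of 0.012. PRMT1, an arginine methyltransferase of histones, rose by 1.33 ± 0.26 (limma, adjusted p = 0.0130), with signals of 4253, 5248, 6214, 7792 and 8439 in brain-dead animals, against 1597, 2323, 2848, 2642 and 3284 in control animals. Its 2 other probe sets changed by -0.30 and -0.069 and did not pass, while its call at the brightest was kept in all 22 alternatives. NRIP1, a corepressor of metabolic receptors, rose by 0.72 ± 0.19 (limma, adjusted p = 0.0436), with a call that ended when any single array was left out (limma, adjusted p between 0.0512 and 0.101). Its 2 other probe sets, at 0.72 and 0.55, did not pass. The coactivator paralogue PPARGC1B had a change of -0.36 ± 0.27 (limma, adjusted p = 0.442). Of 11 measured genes that hold NR1I3 in the cytosol or act on it, none passed (limma, 3 at an unadjusted p under 0.05, or 27.3%, where 25.1% of all genes were). Among these 11, 1 was lower and 1 higher without control animal 4 or with array weights, and 1 was higher with the replicate block. ARNT, the partner of the aryl hydrocarbon receptor, had the largest change at -0.71 ± 0.21 (limma, adjusted p = 0.0649), and DNAJC7, the co-chaperone that retains NR1I3 in the cytosol, had one of 0.70 ± 0.22 (limma, adjusted p = 0.0801).

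The genes whose signal followed NR1I3 most closely over the 10 arrays were GLYAT (r = 0.98), LOC700017 (0.97), OTC (0.97), KNG1 (0.97), SLC6A12 (0.97), EPHX2 (0.97), DGAT2 (0.97) and BHMT2 (0.96). These correlations include the difference between the groups. These were the 8 highest of 9834 genes, and GLYAT, a glycine acyltransferase, had a change of -1.49. In deviations from the group means the 8 highest were LOC700227 (r = 0.97), C1H1orf35 (0.95), NFIC (0.95), KMT2A (0.94), GATD3 (0.94), PTPN18 (0.93), SCCPDH (0.92) and RUNDC3A (0.91). None of these 8 passed the test of brain death. Among the members the highest such correlations with NR1I3 were those of NR1H3 (0.74) and NR1I2 (0.64), and NR5A2 had one of -0.14 at its brightest probe set, all over 10 arrays that share their scaling.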

How the data were processed

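Liver RNA of 10 animals was hybridised to 1-colour arrays, 1 per animal. The authors deposited an intensity per probe set, computed with MAS5 per the submitters' processing notes, and no version of it is known here. Every array had a 2% trimmed mean near 1000. No detection calls were used, so whether a dim probe set exceeds background is unknown.

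Signals were put on a log2 scale with no pseudocount. Of 52865 probe sets, 99 controls were left out, and 26653 lay above their array's median on at least 5 arrays. The test was limma's moderated linear model, eBayes with a trend on mean signal and group as the sole term (limma 3.58.1, R 4.3.3), with Benjamini-Hochberg adjustment over all of them and a threshold of 0.05. Of all probe sets, 24969 had 1 symbol, 361 several and 27535 none in the platform annotation of that array, and symbols were updated through gene IDs for 24629. A gene on a list was read at its probe set with the highest mean. Plots came from matplotlib 3.10.9 (Python 3.11.15).

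Members, lists and tests were chosen with earlier results of these data known. Named list genes were up to 4 per list past the threshold with the largest changes, and the largest change where fewer than 2 passed. Genes named beyond this rule were chosen with their values in view. The labels name no batches. The alternatives were quantile normalization, median centring, pseudocounts, other filters, sex with or without age, a replicate block, eBayes without trend, array weights, and leaving out arrays. The fit was tested on simulated data with known changes before use. It recovered 13 of 50 changes of log2 size 1 and 45 of 50 of size 2. The simulation held 200 changed probe sets and called 157, against 1627 called in the data. Since the adjustment depends on that number, these recovery rates describe the simulated setting and may differ in the data. At sizes near 1, a gene that did not pass is not shown to be unchanged.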

Additional observations from a re-analysis of the deposited data

Results flagged for a closer look

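In groups of 5 animals, 3 of 26 groups of member values held an animal set apart from the other 4, where chance marks about 1 group in 20. That rate is for independent groups. These groups share their animals and include several probe sets of NR1H4 and NR5A2, so no excess is read from the count. For the third NR5A2 probe set, brain-dead animal 1 lay below the other brain-dead animals (gap 0.752 of the group's range on the log2 scale), and control animal 5 lay above the other control animals (gap 0.724). For PPARA, brain-dead animal 1 lay above the other brain-dead animals (gap 0.747). The change of the third NR5A2 probe set was -0.080 without brain-dead animal 1 and -0.052 without control animal 5, against -0.26 with all animals, and that of PPARA was -1.10 without brain-dead animal 1.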

How the results depend on the processing

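Members were chosen on this contrast, so their calls under other settings describe the settings and are no support. The change of NR1I3 lay between -2.88 and -2.49. The count of member probe sets called, 1, was 2 with the replicate block, which added PPARA (-0.96), and 2 with array weights, which added NR1I2 (-1.18). Leaving out each array gave counts of 1 to 2, with NR1I2 between -1.28 and -0.86. Over the pathway lists, 19 genes fell, against 10 with no filter, 10 with sex and age in the model, 10 without both animals numbered 1, 27 with the replicate block, 24 with array weights, and 7 to 25 when single arrays were left out, while 4 rose, against 7 with the replicate block and 3 to 4 when single arrays were left out. For all probe sets, 1627 passed, against 1056 with no filter, 1035 with sex and age, 3013 with the replicate block, 674 without both animals numbered 1, and 660 to 2289 when single arrays were left out. Replicate numbers were not treated as pairing the animals, since no label says that a number links the groups and not every correlation was over 0.1: deviations of same-numbered animals from their group means correlated at 0.38, 0.064, 0.13, 0.089 and 0.13 over the probe sets tested, all above 0. Brain-dead animals 1 and 5 correlated best with the control animal of their own number, and the other 3 did not, which is a hint from the data and not from the design. In both groups animals 1 and 2 were female and animals 4 and 5 male. Number and sex thus run together in part, also in the replicate block, and cannot be told apart here. Counts of members called for sex and for its interaction stayed at 0 in all 16 alternatives of each. Fewer tested genes or animals are built into several of these settings, and further causes were not tested.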
